A study of Mus musculus with 8 samples.

Results

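The 29 genes described here encode the enzymes, transporters and regulators of glycolysis, fructose entry and the pentose phosphate pathway in newborn mouse liver. They were chosen by gene name and place in these pathways, with earlier results of these data known. Each was represented by its non-control probe with the highest mean over the arrays. All 29 had a probe, all passed the filter on dim probes, and all were well above background on all 8 arrays. They are 29 of the 23526 genes tested and account for 46 probes on the array.

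Total liver RNA was measured on 8 single-colour microarrays, 4 of knockout and 4 of wild-type liver, all on the C57BL/6J background. The knockout pups had inherited from their mother a chromosome that lacks the miR-379/miR-410 microRNA cluster, and the wild-type pups were their littermates. Both groups were delivered by caesarean at E19.5, kept in a warm and moist box, and sampled 4 h later from the large lobe of the liver. The labels describe an inherited deletion and no tissue-specific Cre.

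Glycolysis splits glucose into pyruvate and lactate, and the liver uses its own isoforms at several steps: the transporter Slc2a2, the regulatory protein Gckr, the phosphofructokinase Pfkl, the bifunctional enzyme Pfkfb1 and the pyruvate kinase Pklr. Hexokinases Hk1, Hk2 and Hk3, Aldoa, Pkm2 and Ldha are the isoforms of other or many tissues, including fetal liver and blood cells. The pentose phosphate pathway takes glucose 6-phosphate out of glycolysis to make NADPH and ribose 5-phosphate. At birth the placental supply of glucose ends and the liver turns to releasing glucose.

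A level is the log2 of the array's processed signal minus the log2 of the 75th percentile of that array, and a difference is knockout minus wild-type on the log2 scale with its standard error (SE) from limma. Slide and column were read from the scan names and not from a label. On the single slide so read, each column held arrays of 1 genotype, and an effect of the column cannot be told apart from one of the deletion. The genotype check Mirg, a noncoding RNA of the deleted region's neighbourhood, stood between -0.91 and -0.20 on the knockout arrays, against 2.11 to 2.24 on the wild-type arrays. Mirg was thus lower in knockout livers but still well above background on all 8 arrays. Xist, made from the inactive X chromosome of females, passed the background limit on knockout arrays 1, 2 and 4 and on no wild-type array. The Y-linked Ddx3y passed it on knockout arrays 3 and 4 and wild-type arrays 1, 2 and 4. Knockout 4 therefore carried both signals and wild-type 3 neither. Knockout 4 and wild-type 4 held the highest level of 7.71% and 5.66% of all genes, fewer than any other array. Whether the replicate 4 arrays hold RNA of more than 1 pup was not tested. Values from the 6 arrays without replicate 4 are given beside the results, and p-values from 8 arrays treat replicate 4 as an independent animal.

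None of the 29 genes was called in either direction at a limma adjusted p under 0.05, against 9 genes called higher (0.0383%) and 42 called lower (0.179%) of all 23526. Their limma adjusted p-values ran from 0.24 to 0.96 with 8 arrays and from 0.62 to 0.96 with 6 arrays. At an unadjusted limma p under 0.05, 5 were higher in knockout livers (Pgd, Pfkm, Pklr, Pgk1 and Tpi1) and 1 was lower (Gckr), beside 6.84% and 6.48% of all genes. Most differences were small: 26 of the 29 were under 0.3 in size, and the exceptions were Pfkfb3, Hk2 and Gckr. The signs were uneven, since 24 of the 29 had a higher mean in knockout livers (82.8%), whereas 56.5% of all genes did. The median difference was 0.13 over the 29 genes and 0.03 over all genes. With 6 arrays none was called (0.0255% of all genes were), 24 were again higher and the median was 0.15. At an unadjusted p under 0.05, 0 were then higher and 1 was lower, Gckr, beside 3.45% and 3.88% of all genes.

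**Figure D1:**
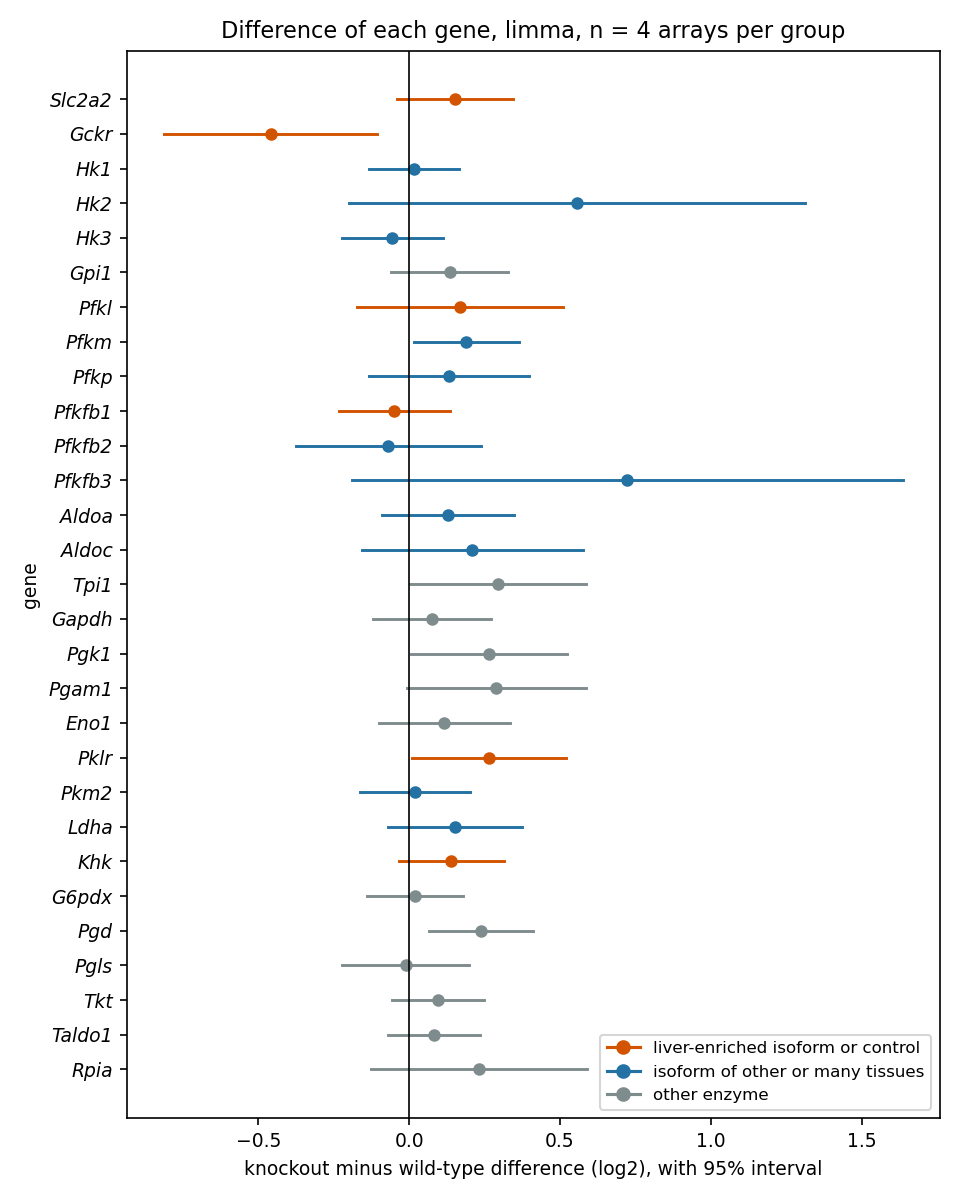
Knockout minus wild-type difference of each gene (log2, horizontal axis) with its 95% interval from limma, 4 arrays per group, genes in pathway order from top to bottom. Points are coloured by isoform class. Of the 29 intervals 23 hold 0, and the widest are those of Pfkfb3 and Hk2.

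The 95% intervals show what these arrays could resolve. Of the 29, 19 lay wholly within 0.5 of 0 on the log2 scale and 27 within 1, and the median interval reached 0.22 to either side of its estimate. Only Hk2 and Pfkfb3 had intervals that reached past 1. More than 1 probe was available for 8 genes, and in all 8 every probe gave a difference of the same sign.

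At the point of entry, Gckr was the gene with the lowest difference of the list, and Hk2, a hexokinase inducible in muscle, fat and dividing cells, had the second highest. Gckr had levels of 3.99, 3.76, 4.20 and 4.18 on knockout arrays 1 to 4, against 4.81, 4.62, 4.19 and 4.34 on wild-type arrays 1 to 4. Knockout 1 and 2 were below every wild-type array, while knockout 3 and 4 lay at the level of wild-type 3. Gckr differed by -0.46 (SE 0.15, limma adjusted p = 0.26), and by -0.56 with 6 arrays (limma adjusted p = 0.62). Without wild-type 1, its highest array, Gckr differed by -0.35 (limma adjusted p = 0.31). With Xist as a covariate it differed by -0.24 (limma adjusted p = 0.74). That fit rests mainly on knockout 3, the only knockout array without Xist signal. In linear terms the knockout mean of Gckr was 0.728 of the wild-type mean. The Gckr probe is placed at chr5:31629583-31629642 on the plus strand (mm9).

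Hk2 had levels of -0.33, -0.36, 1.00 and 0.65 on knockout arrays 1 to 4, against 0.12, -0.18, -0.61 and -0.60 on wild-type arrays 1 to 4. The high values were those of knockout 3 and 4, and knockout 1 and 2 lay inside the wild-type range. The difference was 0.56 (SE 0.33, limma adjusted p = 0.49). Without knockout 3 and 4 it was -0.03, and with 6 arrays 0.32. With Xist as a covariate, a fit that rests mainly on knockout 3, it was 1.52 (limma adjusted p = 0.19). The other genes of this step stayed closer to 0: Slc2a2 at 0.15 (SE 0.08), Hk1 at 0.02 (SE 0.07) and Hk3, a hexokinase of granulocytes and macrophages, at -0.06 (SE 0.07). Slc2a2, the low-affinity glucose transporter of hepatocytes, varied little among knockout arrays (3.32, 3.31, 3.32 and 3.33) and more among wild-type arrays (3.12, 3.00, 3.35 and 3.21). Hk1 had levels of 7.63, 7.51, 7.56 and 7.68 on knockout arrays 1 to 4, against 7.59, 7.60, 7.58 and 7.53 on wild-type arrays 1 to 4. Knockout 1 and 4 were above every wild-type array and knockout 2 was below every one. Granulocyte markers had a median difference of 0.02 and macrophage markers of -0.09, and their part in the value of Hk3 was not tested.

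The promoter of Hk2 is printed because Hk2 is a known target of hypoxia-inducible factors, whose response element holds the core ACGTG or else GCGTG. The sequence is the 250 bases before the start at chr6:82774455-82774704 (minus strand, RefSeq, GRCm38.p6), with the core in capitals on either strand. The promoters of Hk2, Pfkfb3 and Pklr were chosen after their values were seen.
Hk2: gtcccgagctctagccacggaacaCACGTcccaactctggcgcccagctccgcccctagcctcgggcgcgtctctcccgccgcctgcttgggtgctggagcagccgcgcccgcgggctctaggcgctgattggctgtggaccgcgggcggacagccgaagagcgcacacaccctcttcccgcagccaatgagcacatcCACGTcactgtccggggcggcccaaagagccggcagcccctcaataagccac
The core ACGTG occurs in the Hk2 window on 2 occasions and GCGTG on none. Over all 32851 RefSeq promoter windows of this length 16.6% hold ACGTG, 28.2% hold GCGTG and 6.02% hold CACGTG, an E-box that contains ACGTG. A total of 48 windows belong to the 29 genes, and 15 of them hold ACGTG, 23 hold GCGTG and 5 hold CACGTG. A match is a description of the letters and not a site of binding.

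In upper glycolysis 8 of 10 genes had a higher mean in knockout livers, beside 56.5% of all genes. None was called and the median difference was 0.15. Pfkfb3, the inducible bifunctional enzyme that makes fructose 2,6-bisphosphate and so activates phosphofructokinase, had the highest difference of the 29. It stood at 1.08, 0.63, 2.59 and 2.20 on knockout arrays 1 to 4, against 0.64, 0.92, 1.08 and 0.96 on wild-type arrays 1 to 4. Knockout 3 and 4 were above every other array and knockout 2 was level with wild-type 1, the lowest wild-type array. The difference was 0.72 (SE 0.40, limma adjusted p = 0.46), which corresponds to 1.65-fold. It was 0.55 with 6 arrays and -0.05 without knockout 3 and 4. With Xist as a covariate, a fit that rests mainly on knockout 3, it was 1.93 (limma adjusted p = 0.17). Its probe at chr2:11393453-11393512 (mm9, minus strand) and a second one differed by 0.72 and 0.71.

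Pfkfb3 has 2 RefSeq starts, which are printed for the same reason as Hk2, with the same motifs in capitals on either strand. Both lie on the minus strand of GRCm38.p6, at chr2:11553930-11554179 and at chr2:11502091-11502340.
Pfkfb3 first start: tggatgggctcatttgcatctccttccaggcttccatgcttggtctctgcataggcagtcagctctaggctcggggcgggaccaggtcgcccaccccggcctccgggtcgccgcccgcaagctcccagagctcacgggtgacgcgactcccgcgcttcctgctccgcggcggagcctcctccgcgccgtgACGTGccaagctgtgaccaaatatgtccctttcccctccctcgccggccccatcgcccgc
Pfkfb3 second start: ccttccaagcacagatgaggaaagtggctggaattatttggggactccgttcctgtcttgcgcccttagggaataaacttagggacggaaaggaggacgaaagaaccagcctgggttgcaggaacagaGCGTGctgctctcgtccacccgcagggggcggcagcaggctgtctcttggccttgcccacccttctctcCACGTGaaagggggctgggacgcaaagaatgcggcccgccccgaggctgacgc
The window of the first start holds ACGTG 1 time and the window of the second holds an E-box CACGTG and 1 GCGTG. The array probe does not tell the starts apart.

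The liver bifunctional enzyme Pfkfb1 showed no such array pattern. Its levels were 4.72, 4.86, 4.81 and 4.82 on knockout arrays 1 to 4, against 5.02, 4.87, 4.79 and 4.73 on wild-type arrays 1 to 4. The difference of Pfkfb1 was -0.05 (SE 0.08), and that of Pfkfb2, the heart isoform, was -0.07 (SE 0.13), with its lowest value of -0.65 in knockout 3.

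Among the phosphofructokinases, which carry out the committed step, Pfkm of muscle had an unadjusted p under 0.05. Pfkm stood at 2.05, 2.14, 2.26 and 2.21 on knockout arrays 1 to 4, against 1.92, 2.06, 1.90 and 2.03 on wild-type arrays 1 to 4. The groups overlapped only through knockout 1, which was a little below wild-type 2. The difference was 0.19 (SE 0.08, unadjusted p = 0.0355, limma adjusted p = 0.34). Skeletal muscle markers had a median difference of -1.58 over 5 of 6 listed genes, with summed scaled signals of 0.439 to 0.618 in knockout and 0.988 to 2.87 in wild-type livers. The part of muscle RNA in the value of Pfkm was not tested. Pfkl of liver had levels of 2.06, 1.80, 2.23 and 2.13 on knockout arrays 1 to 4, against 1.48, 1.98, 1.99 and 2.08 on wild-type arrays 1 to 4, where wild-type 1 was the low value. The difference of Pfkl was 0.17 (SE 0.15), and 0.03 without wild-type 1. Pfkp of platelets and other tissues had -0.54, -0.61, -0.13 and -0.22 on knockout arrays 1 to 4, against -0.47, -0.55, -0.44 and -0.56 on wild-type arrays 1 to 4, a difference of 0.13 (SE 0.12). Here too knockout 3 and 4 were the highest arrays, and without knockout 3 the difference of Pfkp was 0.05.

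The remaining enzymes of upper glycolysis had differences between 0.13 and 0.29. Tpi1, which interconverts the triose phosphates, had levels of 6.15, 5.88, 6.12 and 6.06 on knockout arrays 1 to 4, against 5.44, 5.74, 6.03 and 5.83 on wild-type arrays 1 to 4. Wild-type 1 was below all the others, and the difference was 0.29 (SE 0.13, unadjusted p = 0.0482, limma adjusted p = 0.37). Without wild-type 1 it was 0.19. Aldoa, the aldolase of muscle and red cells, stood at 7.52, 7.43, 7.75 and 7.69 on knockout arrays 1 to 4, against 7.32, 7.58, 7.52 and 7.46 on wild-type arrays 1 to 4, a difference of 0.13 (SE 0.10). Gpi1, the glucose 6-phosphate isomerase, differed by 0.13 (SE 0.08), and the brain aldolase Aldoc by 0.21 (SE 0.16), with its lowest value in wild-type 1 (4.28). Without wild-type 1 the difference was 0.05 for Aldoc and 0.08 for Aldoa.

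**Figure D2:**
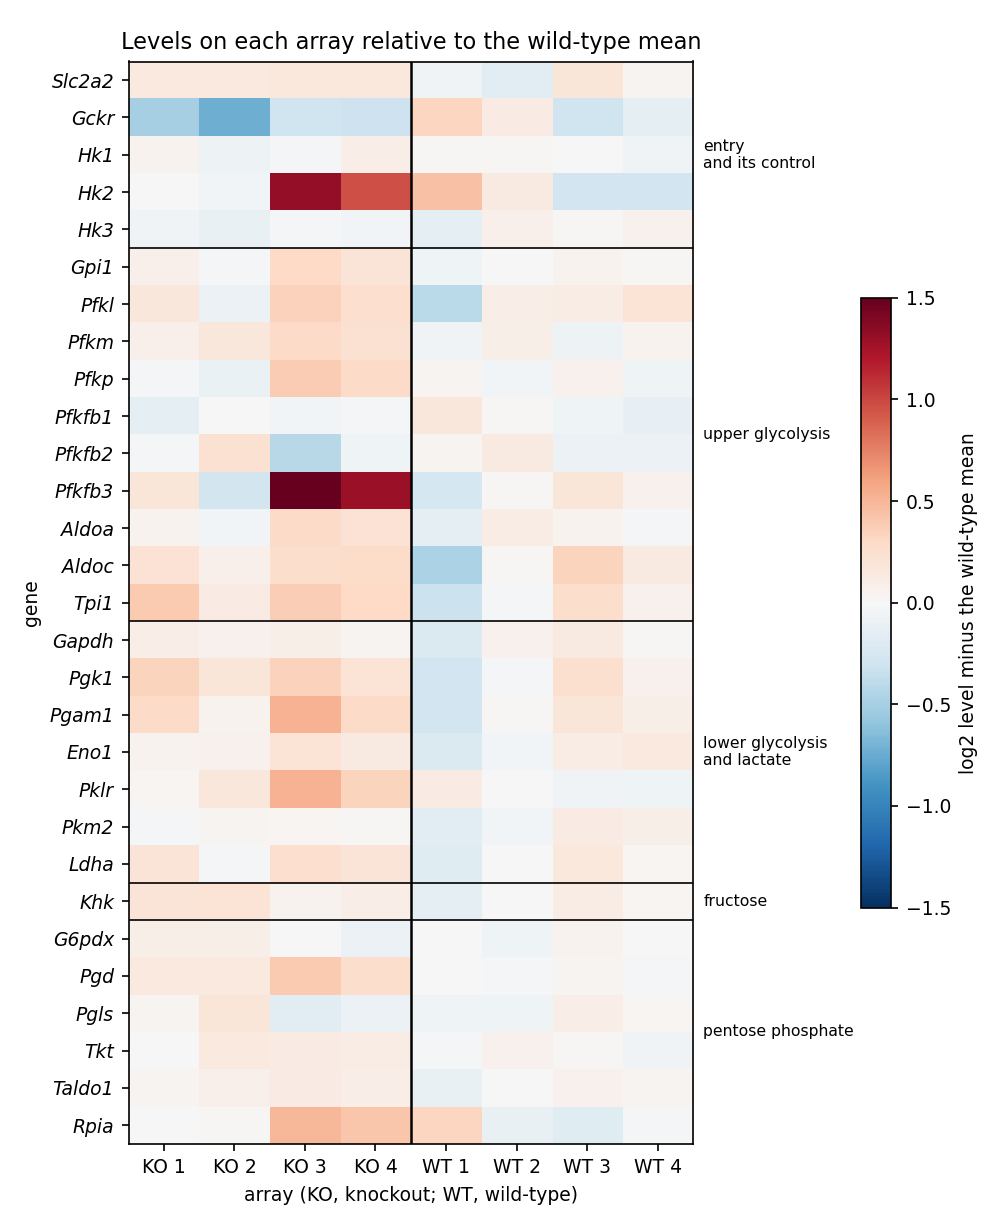
Level of each gene on each array minus the gene's wild-type mean (log2, colour scale from -1.5 to 1.5), knockout arrays left of wild-type arrays, genes in pathway order. The darkest red cells are Pfkfb3 and Hk2 on knockout arrays 3 and 4, the darkest blue cells are those of Gckr on knockout arrays 1 and 2, and many cells of wild-type 1 are blue.

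All 7 genes of lower glycolysis and lactate formation had a higher mean in knockout livers, beside 56.5% of all genes. Their median difference was 0.15 and none was called. With 6 arrays all 7 were again higher, with a median of 0.16. Pgk1, the first enzyme of the pathway to make ATP, had levels of 6.81, 6.66, 6.82 and 6.69 on knockout arrays 1 to 4, against 6.20, 6.46, 6.72 and 6.55 on wild-type arrays 1 to 4. The difference of 0.27 (SE 0.11, unadjusted p = 0.0452, limma adjusted p = 0.37) was 0.17 without wild-type 1, the lowest array. The chosen Pgk1 probe is placed on chromosome 3 (mm9) whereas the gene lies on the X chromosome, so near-identical copies may share its signal. The same holds for the chosen Gapdh probe, placed on chromosome 7 with the gene on chromosome 6. Gapdh, the glyceraldehyde 3-phosphate dehydrogenase often used as a reference gene, differed by 0.07 (SE 0.09), and its 8 probes by 0.06 to 0.20. Without wild-type 1 the chosen Gapdh probe differed by 0.0021.

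Pgam1, a phosphoglycerate mutase, differed by 0.29 (SE 0.13, limma adjusted p = 0.39). It stood highest in knockout 3 (6.79) and lowest in wild-type 1 (5.98). Eno1, the ubiquitous enolase, differed by 0.12 (SE 0.10). Ldha, which converts pyruvate to lactate, had levels of 8.92, 8.70, 8.98 and 8.93 on knockout arrays 1 to 4, against 8.55, 8.73, 8.89 and 8.76 on wild-type arrays 1 to 4. Its difference was 0.15 (SE 0.10), and its 3 probes ran from 0.15 to 0.38. Without wild-type 1 the differences were 0.19 for Pgam1, 0.09 for Ldha and 0.04 for Eno1.

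The pyruvate kinases form pyruvate and ATP in the last step. Pklr, the gene of the liver and red cell forms, had levels of 0.18, 0.31, 0.67 and 0.48 on knockout arrays 1 to 4, against 0.27, 0.14, 0.10 and 0.08 on wild-type arrays 1 to 4. Knockout 2, 3 and 4 were above every wild-type array and knockout 1 was not. The difference of Pklr was 0.26 (SE 0.11, unadjusted p = 0.0447, limma adjusted p = 0.37), with 0.22 from 6 arrays and 0.10 without knockout 3 and 4. Pkm2 is the array's name for the gene now called Pkm, whose M1 and M2 forms this probe was not shown to separate. Its levels were 4.30, 4.36, 4.35 and 4.33 on knockout arrays 1 to 4, against 4.15, 4.27, 4.44 and 4.40 on wild-type arrays 1 to 4, a difference of 0.02 (SE 0.08).

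The Pklr promoter is printed because the L-type promoter of the rat is the textbook carbohydrate response element, which binds the glucose-sensing factor ChREBP (gene Mlxipl) together with Mlx. The window at chr3:89136373-89136622 (plus strand, RefSeq, GRCm38.p6) is that of 1 of 2 starts, and CACGGG followed after any 5 bases by CCCGTG, searched on both strands, is in capitals.
Pklr: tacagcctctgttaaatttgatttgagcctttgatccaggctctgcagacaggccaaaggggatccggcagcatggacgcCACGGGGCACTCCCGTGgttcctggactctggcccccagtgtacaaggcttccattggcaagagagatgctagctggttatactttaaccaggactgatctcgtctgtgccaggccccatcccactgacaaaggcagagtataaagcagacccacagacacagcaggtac
This spacing and spelling occurred in 1 of the 32851 windows, the one printed. The motif was taken from knowledge of this promoter, so its presence is no finding. Mlxipl differed by 0.25 (SE 0.23, limma adjusted p = 0.64) and Mlx by -0.05 (SE 0.08). Mlxipl stood at 2.17, 1.98, 3.01 and 2.76 on knockout arrays 1 to 4, against 2.49, 2.02, 2.27 and 2.13 on wild-type arrays 1 to 4. Knockout 3 and 4 were its highest arrays, and its part in the level of Pklr was not tested.

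**Figure D3:**
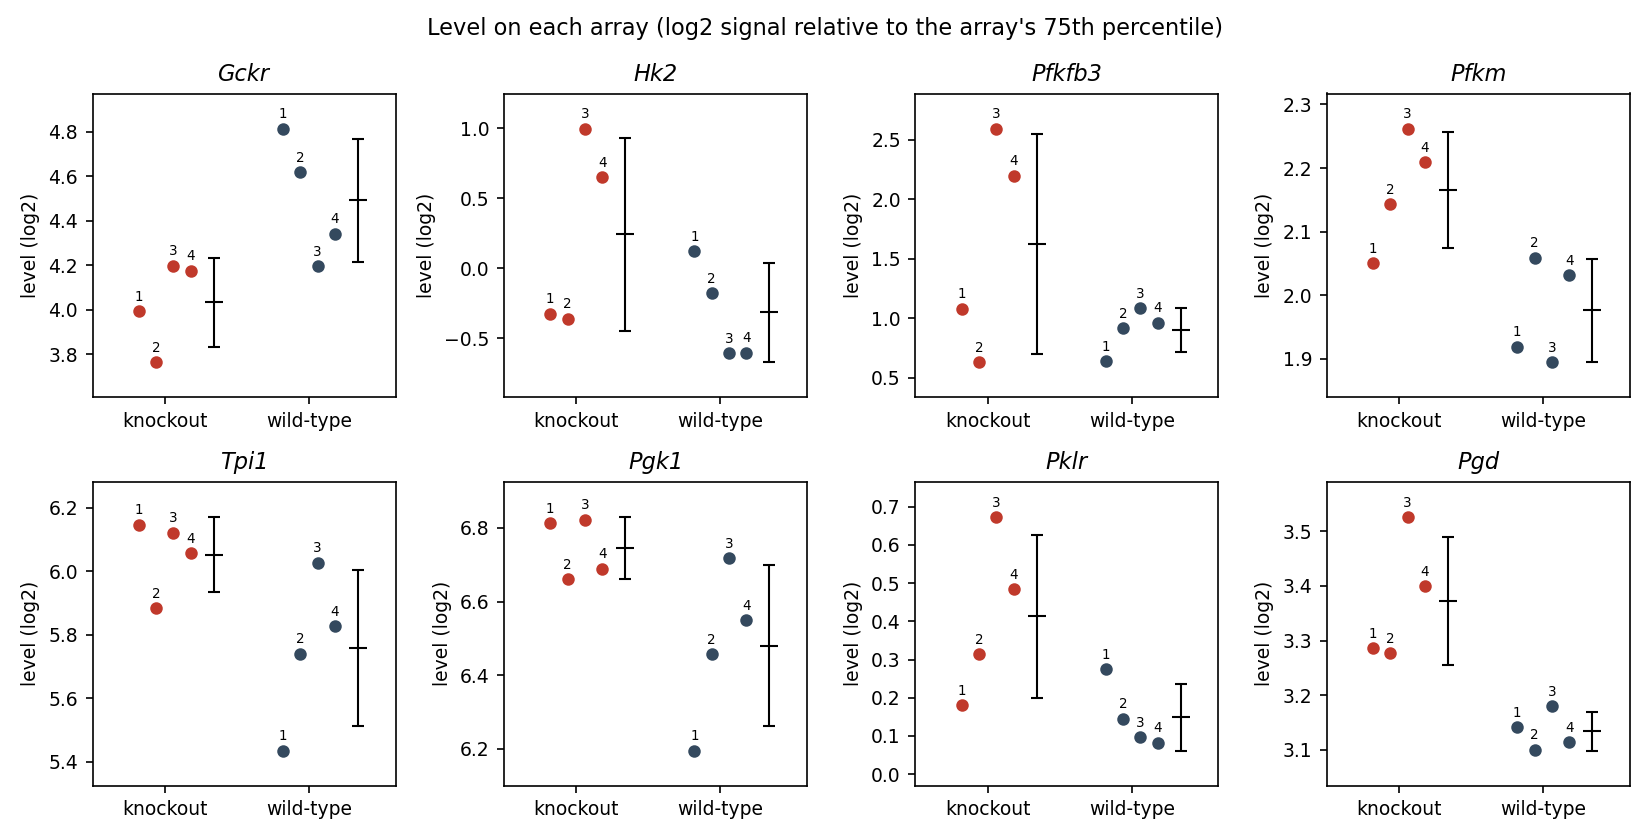
Levels (log2 relative to the array's 75th percentile, vertical axes with separate ranges) of 8 genes on each numbered array, knockout left of wild-type, with the group mean and SD (bar, n = 4). The groups are disjoint for Pgd alone, and knockout 3 and 4 stand high for Hk2 and Pfkfb3.

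Khk, the ketohexokinase that admits fructose to liver metabolism, stood at 4.39, 4.40, 4.25 and 4.30 on knockout arrays 1 to 4, against 4.06, 4.20, 4.31 and 4.22 on wild-type arrays 1 to 4. Here knockout 1 and 2 were the highest arrays, unlike Hk2 and Pfkfb3, and knockout 3 was below wild-type 3. The difference was 0.14 (SE 0.08, limma adjusted p = 0.46). A second Khk probe differed by 0.24.

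In the pentose phosphate pathway 5 of 6 genes had a higher mean in knockout livers, beside 56.5% of all genes. None was called and the median difference was 0.09. Pgd, the second NADPH-forming dehydrogenase of the pathway, was the member with the smallest p. Its levels were 3.29, 3.28, 3.53 and 3.40 on knockout arrays 1 to 4, against 3.14, 3.10, 3.18 and 3.11 on wild-type arrays 1 to 4. Every knockout array was above every wild-type array, and Pgd was the single gene of the 29 whose groups did not overlap, beside 4.72% of all genes higher and 4.33% lower in this way. The difference of Pgd was 0.24 (SE 0.08, unadjusted p = 0.0129, limma adjusted p = 0.24), or 1.18-fold. It was 0.22 with 6 arrays (limma adjusted p = 0.71) and 0.15 without knockout 3 and 4. The probe lies at chr4:148524293-148524352 (mm9, minus strand).

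The promoter of Pgd is printed because its groups were disjoint. It is the window at chr4:149166706-149166955 (minus strand, RefSeq, GRCm38.p6), with GCGTG in capitals.
Pgd: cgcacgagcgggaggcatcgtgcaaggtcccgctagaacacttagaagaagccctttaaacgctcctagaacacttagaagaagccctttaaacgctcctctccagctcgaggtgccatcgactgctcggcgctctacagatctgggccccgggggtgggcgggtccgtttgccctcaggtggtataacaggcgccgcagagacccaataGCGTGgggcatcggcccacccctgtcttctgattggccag
The window holds 1 GCGTG and neither ACGTG nor CACGTG. A second RefSeq start of Pgd has none of these in its window.

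G6pdx, the X-linked first dehydrogenase of the pathway and its committed step, differed by 0.02 (SE 0.07), with levels of 3.80 to 3.98 on knockout arrays and 3.84 to 3.96 on wild-type arrays. Both dehydrogenases produce NADPH, and the adjusted p was 0.92 for G6pdx and 0.24 for Pgd in limma. Whether their differences differ from each other was not tested. Pgls, the lactonase between them, differed by -0.01 (SE 0.09). The enzymes of the non-oxidative branch, which exchange sugars with glycolysis, differed by 0.09 (SE 0.07) for the transketolase Tkt, 0.08 (SE 0.07) for the transaldolase Taldo1 and 0.23 (SE 0.16) for the ribose 5-phosphate isomerase Rpia. Rpia was again highest in knockout 3 and 4 (1.75 and 1.66), with 1.24 and 1.26 in knockout 1 and 2 and 1.06 to 1.57 in wild-type livers.

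The liver and the general isoforms were set against each other in 8 pairs, of which 6 are reported here, as the log2 ratio of the 2 probes on each array, compared only between genotypes. Ldha was set against Ldhb, which is not a liver isoform. The SE of a ratio's difference was computed from the SDs of the 2 groups and not by limma. The 6 liver-enriched genes had a median difference of 0.15, with 4 higher in knockout livers. The 11 isoforms of other or many tissues had a median of 0.13, with 9 higher. Of all genes 56.5% were higher. The 8 ratios were compared by an exact permutation test over the 70 assignments of the 8 arrays (two-sided, smallest possible p = 0.0286). After Benjamini-Hochberg adjustment over the 8, none had an adjusted p under 0.05. Even a ratio with disjoint groups could not have passed unless several other ratios also had small p-values. The adjusted p-values therefore cannot decide whether a given ratio differed. In none of the 8 ratios were the groups disjoint.

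The ratio of Slc2a1, the transporter of red cells and fetal tissues, to Slc2a2 was higher by 0.55 in knockout livers (SE 0.22, exact permutation p = 0.0571, adjusted p = 0.229). Relative to its wild-type mean this ratio was 0.58, 0.63, 0.54 and 0.47 on knockout arrays 1 to 4, against -0.55, 0.49, -0.05 and 0.11 on wild-type arrays 1 to 4. Wild-type 2 reached the knockout values and wild-type 1 was the lowest. Without wild-type 1 the difference was 0.37. With 6 arrays it was 0.62 (exact permutation p = 0.1, the smallest possible with 6 arrays).

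The ratio of Pfkfb3 to Pfkfb1 was higher by 0.77 (SE 0.49, exact permutation p = 0.200, adjusted p = 0.320), with 0.31, -0.28, 1.74 and 1.32 on knockout arrays 1 to 4, against -0.42, 0.00, 0.25 and 0.18 on wild-type arrays 1 to 4. Knockout 2 lay inside the wild-type range. The ratio of Pkm2 to Pklr differed by -0.24 (SE 0.15, exact permutation p = 0.114, adjusted p = 0.305). It stood at -0.05, -0.12, -0.49 and -0.32 on knockout arrays 1 to 4, against -0.29, -0.04, 0.18 and 0.15 on wild-type arrays 1 to 4, so knockout 3 was the lowest array and wild-type 3 the highest. The ratio of Ldha to Ldhb, the isoform of heart and other oxidative tissues, differed by 0.22 (SE 0.12, exact permutation p = 0.171, adjusted p = 0.320). With 6 arrays the difference was 0.65 for Pfkfb3 to Pfkfb1, -0.17 for Pkm2 to Pklr and 0.23 for Ldha to Ldhb. The exact permutation p-values with 6 arrays were 0.4, 0.4 and 0.2 in that order.

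The phosphofructokinase ratios differed by 0.02 for Pfkm to Pfkl (SE 0.14) and by -0.04 for Pfkp to Pfkl (SE 0.16). Their exact permutation p-values were 0.857 and 0.943 (adjusted p = 0.943 for both). With 6 arrays the differences were -0.015 and -0.15.

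**Figure D4:**
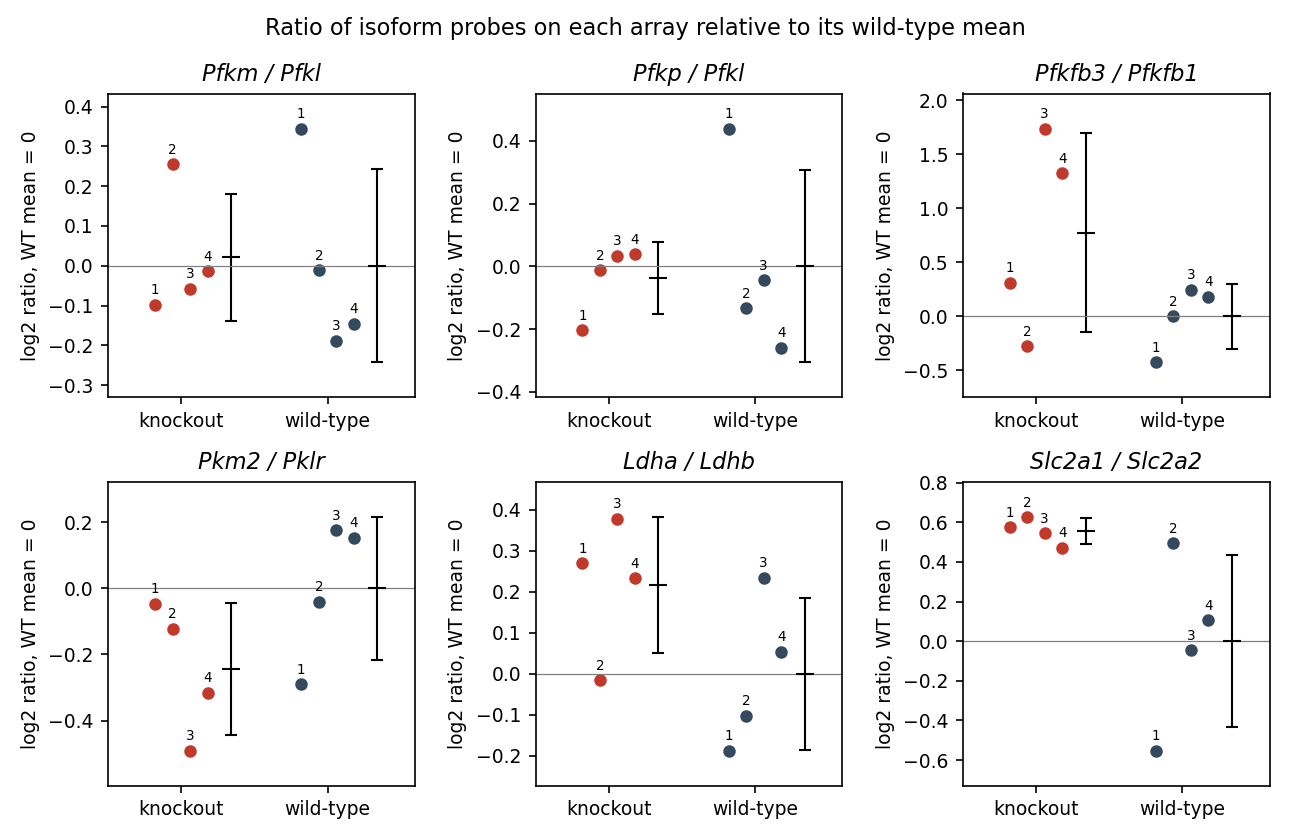
Log2 ratio of 2 probes on each numbered array minus the wild-type mean of that ratio (vertical axes with separate ranges), the second gene being the liver isoform except for Ldhb, knockout left of wild-type; bars are mean and SD, n = 4. All 6 panels show overlapping groups, with the ratio of Slc2a1 to Slc2a2 at 0.47 to 0.63 in knockout livers.

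The arrays were then compared over the whole list. Knockout 3 held the highest level of 15 of the 29 genes, where it held that of 14.5% of all genes, and wild-type 1 held the lowest level of 14, where it held that of 26.3% of all genes. The median deviation of the 29 genes from their wild-type means was 0.06, 0.06, 0.25 and 0.20 on knockout arrays 1 to 4, against -0.07, 0.01, 0.06 and 0.03 on wild-type arrays 1 to 4. Knockout 3 and 4 are the knockout arrays with Ddx3y signal, and knockout 4, with Xist signal too, may not be a separate animal. Without them 22 of the 29 were still higher in knockout livers, with a median of 0.07, and without wild-type 1 the median was 0.09 with 24 higher. Without knockout 4 the median was 0.11 with 24 higher. Sex was examined by covariates: with Xist the median was 0.27 with 23 higher, with Ddx3y it was 0.15 with 23 higher, and none of the 29 was called in either fit. With Xist above background in 3 knockout and 0 wild-type livers, genotype and sex cannot be fully told apart in these fits. Knockout 3, with an Xist level of -6.80, was the only knockout array near the wild-type levels of -7.78 to -6.89. The difference adjusted for Xist therefore rests mainly on knockout 3.

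Of 44 other genes of these pathways, chosen with earlier results known, 43 were tested and none was called, beside 0.217% of all genes. The median difference was 0.03, and 26 (60.5%) were higher in knockout livers, beside 56.5% of all genes. At an unadjusted p under 0.05, 5 were higher and 1 was lower, beside 6.84% and 6.48% of all genes. Pdk1, a kinase that inhibits pyruvate dehydrogenase, had levels of 2.12, 1.94, 2.12 and 2.04 on knockout arrays 1 to 4, against 1.72, 1.64, 1.84 and 1.77 on wild-type arrays 1 to 4, with no overlap. Its difference was 0.31 (SE 0.07, limma adjusted p = 0.15). Slc2a1 had 5.51, 5.55, 5.48 and 5.42 on knockout arrays 1 to 4, against 4.18, 5.11, 4.91 and 4.93 on wild-type arrays 1 to 4, a difference of 0.71 (SE 0.18, limma adjusted p = 0.17). Ldhd, which uses D-lactate, differed by -0.60 (SE 0.14, limma adjusted p = 0.15), again without overlap. The others were Pdk3 (0.18), the lactate exporter Slc16a3 (0.46) and the neuronal enolase Eno2 (0.81). Groups were disjoint for 3 of the 43 in the higher direction and 1 in the lower, beside 4.72% and 4.33% of all genes.

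Genes that respond to low oxygen, which share regulators with glycolysis, were counted beside the 29. Of 20 such genes none was called, beside 0.217% of all genes. A higher mean in knockout livers was found for 17, beside 56.5% of all genes, and the median difference was 0.28. At an unadjusted p under 0.05, 7 were higher and 1, Ddit4, was lower, beside 6.84% and 6.48% of all genes. Ddit4 differed by -0.42 (SE 0.13, limma adjusted p = 0.23), without overlap of its groups. The demethylase Kdm3a differed by 0.31 (SE 0.11, limma adjusted p = 0.28), with levels of 2.15 to 2.48 in knockout and 1.75 to 2.14 in wild-type livers, without overlap. Slc2a1 and Pdk1 belong to this list as well. Groups in the list were disjoint for 3 genes in the higher direction and 1 in the lower, beside 4.72% and 4.33% of all genes. Per array the list stood at 0.27, 0.01, 0.50 and 0.36 on knockout arrays 1 to 4, against -0.19, 0.03, 0.11 and 0.04 on wild-type arrays 1 to 4. Its highest array was knockout 3 and its lowest wild-type 1, which held the lowest level of 26.3% of all genes. The part of low oxygen in the levels of the 29 genes was not tested.

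**Figure D5:**
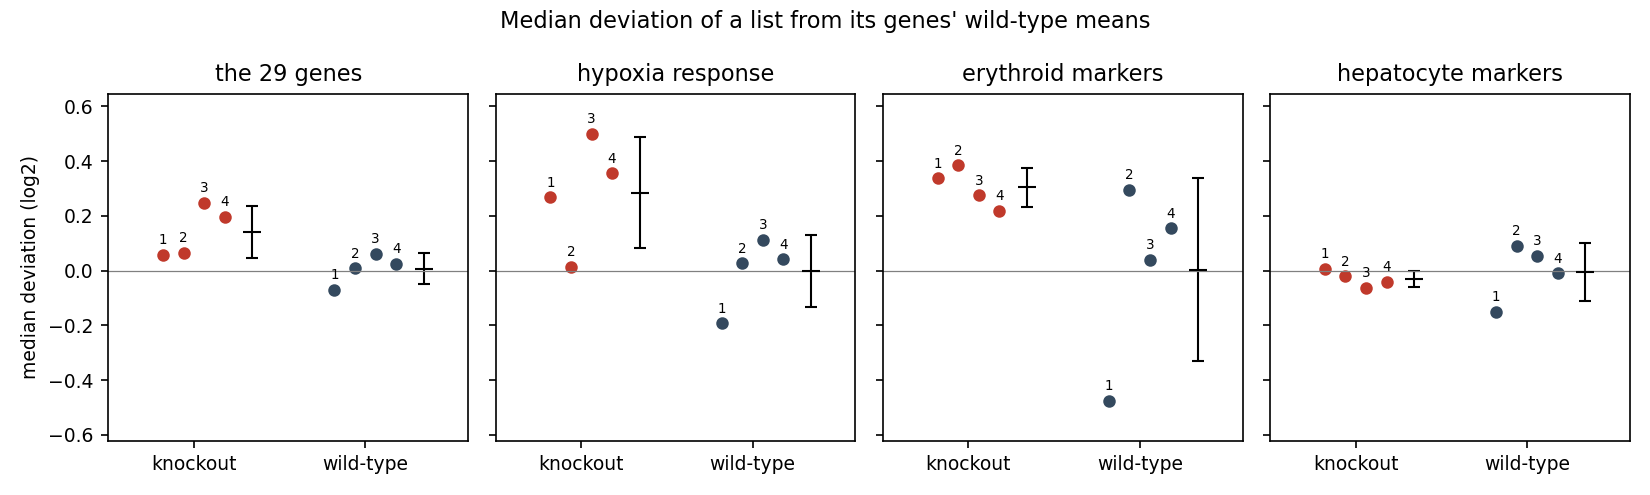
Median deviation of a gene list from its genes' wild-type means on each numbered array (log2, shared vertical axis), for the 29 genes, 20 hypoxia response genes, 9 erythroid and 7 hepatocyte markers, knockout left of wild-type; bars are mean and SD, n = 4. Wild-type 1 is the lowest array in all 4 panels, and knockout 3 is the highest for the 29 genes and the hypoxia list.

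Markers of the cells that a newborn liver holds were measured on the same arrays. In bulk tissue, fewer cells of a type and less RNA per cell cannot be told apart. Hepatocyte markers (7 of 8 listed, Alb among them) had a median difference of -0.03 and summed scaled signals of 4669 to 4852 in knockout and 4365 to 5158 in wild-type livers. Erythroid markers (9 of 10 listed) had a median difference of 0.30 with 8 of 9 higher, beside 56.5% of all genes. They stood at 0.34, 0.38, 0.28 and 0.22 on knockout arrays 1 to 4, against -0.47, 0.30, 0.04 and 0.16 on wild-type arrays 1 to 4. Their summed scaled signals were 1879 to 2026 in knockout and 1429 to 2122 in wild-type livers, lowest in wild-type 1. There 14 of the 29 genes, and 26.3% of all genes, were also lowest. By median deviation wild-type 1 was also lowest for hepatocyte, granulocyte and lymphocyte markers, and highest for macrophage, megakaryocyte and endothelial markers. Several of the 29, such as Hk1, Aldoa and Pklr, are also expressed in red cells and their precursors. Among these, Aldoa alone was lowest in wild-type 1 (7.32). Hk1 stood at 7.59 in wild-type 1, and Pklr stood at 0.27, its highest wild-type level. The part of erythroid RNA in these results was not tested. Pancreas markers (5 of 7 listed) stood apart in wild-type 3 and 4, with summed scaled signals of 13.6 to 22.0 in knockout livers, against 30.1, 21.6, 124 and 66.4 on wild-type arrays 1 to 4. Without wild-type 3 and 4 the median difference of the 29 genes was 0.17, with 24 higher. The median difference was -0.28 for stellate and fibroblast, -0.25 for lymphocyte, -0.08 for endothelial and -0.06 for megakaryocyte markers.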

How the data were processed

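Liver RNA was labelled with Cy3 and hybridised to 8 Agilent arrays, per the labels' protocols. The authors deposited spot intensity on a linear scale made with Agilent Feature Extraction 10.10 (version from the submitters' processing notes), and a value table in log2 units. Coordinates of probes are on mm9, per the file headers. From the deposited processed signals, log2 values were taken minus each array's 75th percentile over non-control spots. Outlier-flagged spots were left out, spots of 1 probe were averaged, and 87 probes without an unflagged spot were dropped. A probe was kept if well above background on at least 4 of 8 arrays, and a gene was represented by its kept probe with the highest mean. Between 58.6% and 66.2% of spots were well above background, and none was saturated. Symbols were updated through RefSeq (GRCm38.p6).

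Groups were compared with limma 3.58.1 (lmFit, eBayes, R 4.3.3), without covariates, two-sided, adjusted by Benjamini-Hochberg over 23526 genes. The procedure was tested on simulated data. It recovered 48.6% of changes of 0.5 on the log2 scale, 84.1% of changes of 1 and 93.0% of changes of 2. Smaller changes were not simulated. Isoform ratios were compared by exact permutation, adjusted over 8; 2 of the ratios, and the genes they need, are not reported here. All 8 levels are given for those of the 29 genes with an unadjusted p under 0.05, with disjoint groups or in a reported isoform ratio. The 29 genes, the lists and the tests were chosen with earlier results of these data known. Same-numbered arrays of the 2 groups did not deviate together (correlations -0.11, -0.03, -0.01 and 0.07), so the numbers were not treated as pairs.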

Additional observations from a re-analysis of the deposited data

How the results depend on the processing

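None of the 29 genes was called under any of the alternatives run, thresholds of 0.01 and 0.1 included, and between 22 and 26 of them had a higher mean in knockout livers in each. Their median difference was 0.27 with Xist as a covariate and 0.09 to 0.19 when 1 array was left out. Over all genes, those called lower and higher changed more: 14 higher with median scaling; 66 and 14 with quantile normalization; 121 lower with normexp; 127 and 24 with normexp and quantile normalization; 123 and 20 in the deposited value table; 19 and 0 without the filter; 119 and 30 with a trended, robust variance; 15 and 3 with Xist and 78 lower with Ddx3y as a covariate; 17 and 2 with the replicate block; 6 and 0 without replicate 4; 9 and 3 without knockout 3 and 4; 11 and 2 without wild-type 3 and 4; 17 and 0 at a threshold of 0.01, and 143 and 57 at 0.1. Leaving out 1 array gave 14 to 66 lower and 0 to 24 higher. Differences close to 0 changed sign. Hk1 was -0.0012 with median scaling, -0.038 with quantile normalization, -0.029 with normexp and quantile normalization, -0.033 in the deposited table, -0.028 without replicate 4, -0.010 without knockout 3 and 4 and -0.0041 without wild-type 3 and 4. G6pdx was -0.0034 with quantile normalization, -0.016 with normexp added, -0.023 with Xist and -0.0055 with Ddx3y. Pgls was 0.0028 with normexp, 0.025 without replicate 4, 0.11 without knockout 3 and 4 and 0.055 without wild-type 3 and 4. Without knockout 3 and 4, Hk2 was -0.027, Pfkp -0.067, Pfkfb2 0.10 and Pfkfb3 -0.046. The ratio of Pfkm to Pfkl was -0.015 without replicate 4 and -0.15 without wild-type 3 and 4. With 1 array left out, the ranges that crossed 0 were -0.012 to 0.045 for Hk1, -0.0024 to 0.057 for G6pdx, -0.17 to 0.047 for Pfkfb2, -0.075 to 0.040 for Pgls, -0.089 to 0.0057 for Pfkfb1, -0.035 to 0.060 for Pkm2, -0.056 to 0.14 for Pfkm to Pfkl and -0.12 to 0.11 for Pfkp to Pfkl. The causes were not tested. The isoform ratios were not run with covariates or the trended variance, since the permutation test holds no model. The number of arrays limits what could be resolved.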
